A study of Danio rerio with 17 samples.

Results

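Gene counts of MLCs, described in the study's design text as mpeg1+ cells that stay local in the skin, were compared with those of neutrophils from the same tissue, the epidermis of adult zebrafish. The comparison used 7 of the 17 libraries of the study, 4 of MLCs and 3 of neutrophils, chosen by their labels and by no measured value. MLCs came from a transgenic line with 2 joined parts. In mpeg1:loxP-DsRedx-loxP-GFP the promoter of the macrophage gene mpeg1 drives a red reporter that recombination replaces with a green one, and in hsp70:mCherry-T2a-CreERT2 a heat shock promoter drives a red protein and the inducible recombinase. Neutrophils came from Tg(lyz:GFP), in which the promoter of the lysozyme gene drives green fluorescence. The 2 groups therefore differ in transgenic line as well as in cell type, and both rest on 1 reporter each. Fluorescent cells were picked by hand into Triton lysis buffer and amplified by SMART-seq2, a method that copies full-length transcripts from few cells. The sources used do not say what the abbreviation MLC stands for, and neither the number of cells per library nor the color of the picked MLCs is given. The other libraries are cLCs, picked from the same line as MLCs, keratinocytes and T cells, and served to estimate the spread and to give context.

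Neutrophils are short-lived granulocytes that reach a wound or an infection from the blood, kill microbes with oxidants and granule enzymes, and sense the site through receptors for complement, lipid and cytokine signals. Macrophages and Langerhans cells are tissue-resident phagocytes: they take up material, digest it in lysosomes and show peptides to T cells on MHC class II molecules, and Langerhans cells of mammals are held in the epidermis by the adhesion protein E-cadherin. Expression of mpeg1 in zebrafish is best known from macrophages, but it also marks other cells, so a reporter for it does not define a cell type.

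The reporter genes followed the labels. The mpeg1.1 gene, which encodes the pore-forming protein perforin-2, reached 862, 1628, 1382 and 1234 CPM in MLCs replicates 1 to 4 and had 0 counts in all 3 neutrophil libraries. CPM are gene counts relative to the library total, after TMM scaling between libraries. The lysozyme gene lyz reached 2077, 1116 and 2276 CPM in neutrophils replicates 1 to 3 and was seen in 1 MLC library, replicate 4, at 0.459 CPM. The 2 groups did not overlap for either gene. Both directions follow from the reporters used for picking, also where mpeg1.1 and lyz are counted in the lists below.

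Total gene counts ranged from 5837662 to 21343723 in MLCs and from 14082748 to 24596883 in neutrophils. Neutrophils replicates 2 and 3 stood apart in the number of genes with at least 1 count, 5071 and 4556, against 11404 in neutrophils replicate 1 and 8972 to 15684 in MLCs. Of 35117 identifiers, 15247 passed the filter on low counts and were tested. Of these, 4397 (28.8%) had 0 counts in every neutrophil library and 917 (6.01%) in every MLC library. The median log2 fold change of all tested genes, MLCs over neutrophils, was 1.08 with TMM scaling and 1.00 with RLE scaling, and list medians are set beside it. It includes genes with 0 counts in 1 group and is not an offset shared by all genes. Ribosomal protein and oxidative phosphorylation genes had lower medians, given below. Where a library holds more than 1 cell, fewer cells of a type and less RNA per cell cannot be told apart. The design text describes the replicates as independent experiments. The p-values measure the spread between replicates as estimated over all 17 libraries, and so also over cLCs, keratinocytes and T cells.

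**Figure D1:**
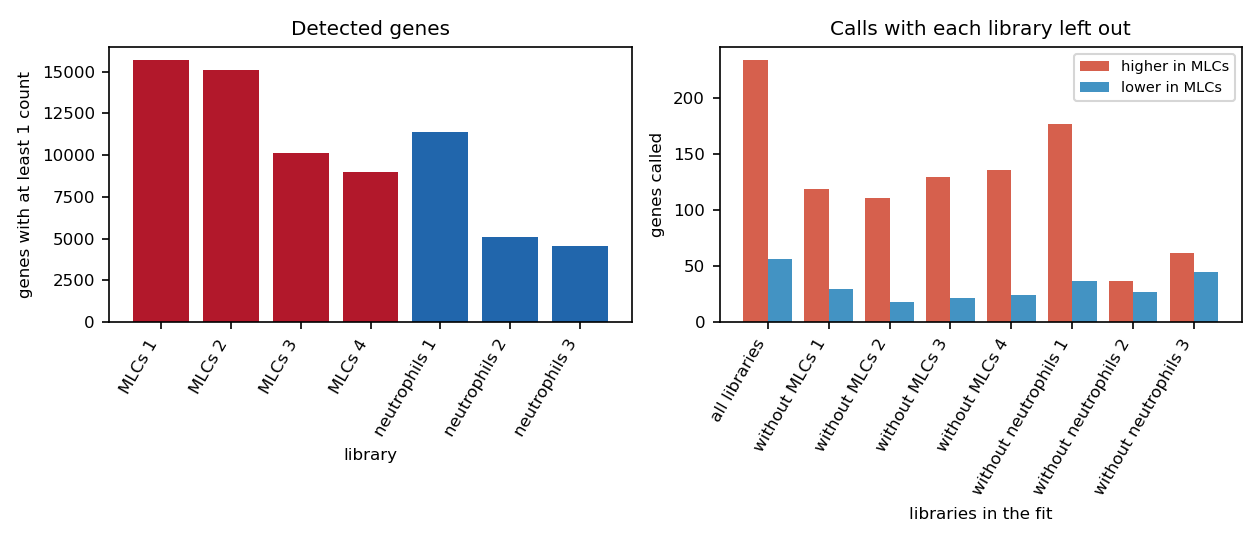
Left, genes with at least 1 count (y axis) in each MLC library (red) and neutrophil library (blue). Right, genes called higher (orange) or lower (light blue) in MLCs at an edgeR adjusted p under 0.05, with all 17 libraries and with each of the 7 compared libraries left out. Neutrophils replicates 2 and 3 hold 5071 and 4556 genes, and without replicate 2 the calls number 37 higher and 27 lower in place of 234 and 56.

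MLCs differed from neutrophils in 290 of 15247 tested genes (1.9%), by edgeR's quasi-likelihood test with Benjamini-Hochberg adjusted p under 0.05. Of these, 234 (1.53% of tested genes) were higher in MLCs and 56 (0.367%) lower. Most of the calls were near-complete differences in detection. Of the 234 higher genes, 191 had 0 counts in all 3 neutrophil libraries, and 195 had 0 counts in neutrophils replicate 1, the library with 11404 detected genes. Of the 56 lower genes, 29 had 0 counts in all 4 MLC libraries. Libraries did not overlap in 229 of the 234 and 49 of the 56, where among all tested genes every MLC library was above every neutrophil library in 13.4% and the reverse held in 3.0%. DESeq2 called 2350 higher (15.4%) and 399 lower (2.62%), and limma on log2(TPM + 1) called 952 (6.53% of the genes it tested) and 346 (2.37%). Leaving out neutrophils replicate 2 left 36 of the 234 and 26 of the 56 calls, leaving out neutrophils replicate 3 left 59 and 37, and leaving out neutrophils replicate 1 left 88 and 37. Leaving out MLCs replicates 1 to 4 in turn left 119, 111, 128 and 136 of the 234 and 23, 16, 21 and 20 of the 56. No called gene changed direction in any of these 7 fits. For genes whose libraries did not overlap, leaving out 1 library could hardly reverse the direction, so this adds no support. Without the 4 libraries of fewer than 6000 detected genes, neutrophils replicates 2 and 3 and cLCs replicates 3 and 4, 86 of the 234 and 47 of the 56 calls remained. Among the 68 called genes named in the text, 21 were lost there (edgeR adjusted p 0.051 to 0.212): ENSDARG00000080337, anxa5b, ccl20a.3, ccl35.1, cd22, ciita, cldn7b, ctsk, elf3, epcam, gsnb, il1b, il20ra, mhc2b (ENSDARG00000104730), mpeg1.1, nipal4, nr4a3, pou2f3, tlr21, tlr4bb and vwa11.

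**Figure D2:**
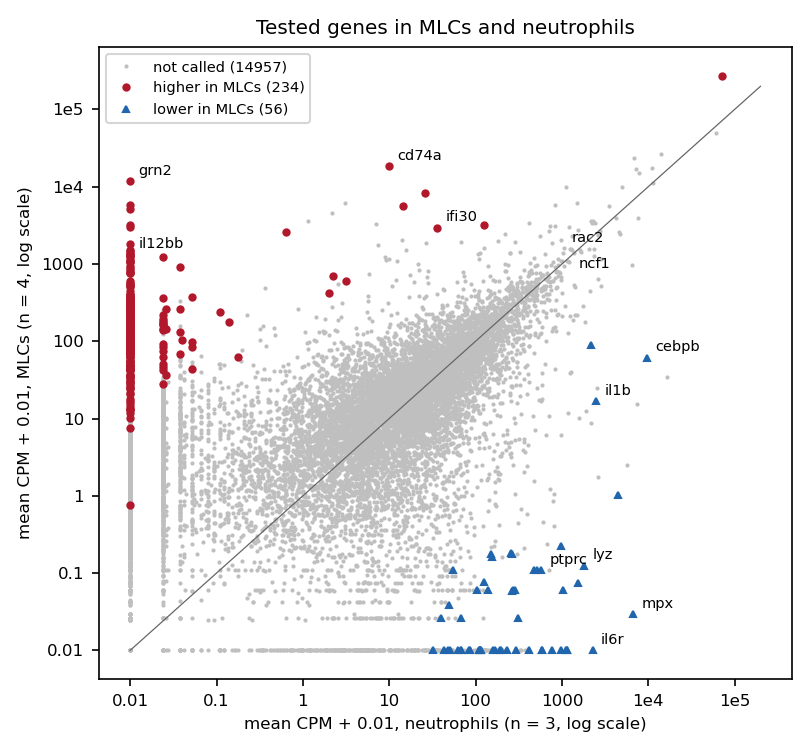
Mean CPM plus 0.01 of each tested gene in neutrophils (x axis, n = 3, log scale) and MLCs (y axis, n = 4, log scale), with 234 genes called higher (red circles), 56 called lower (blue triangles) and the rest in grey. Called genes sit mostly along both edges, where 1 group has no counts, and rac2 and ncf1 lie near the diagonal.

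The gene with the largest fold was grn2, a granulin gene. Its levels were 5007, 12826, 18293 and 10639 CPM in MLCs replicates 1 to 4, and no count fell on it in the neutrophil libraries. All 4 MLC libraries were high, and the mean was at least 247256-fold higher (edgeR adjusted p = 0.0121). Here and below, such a fold sets the mean against 3 counts over the group with 0 counts. It covers counting error only, leaves out the spread between libraries and is not a confidence limit. Per transcript length grn2 reached 21319.8 ± 12432 TPM in MLCs (mean ± SD, n = 4). Within the study grn2 was at 54.9 ± 96.9 CPM in cLCs (n = 4), 0.238 ± 0.412 CPM in T cells (n = 3) and 0 in keratinocytes. For grn2 the call held with any 1 of the 7 libraries left out (edgeR adjusted p up to 0.0452).

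Several of the genes of largest fold belong to epithelia, and immune genes among them, such as il22ra2, ccl35.1 and il12bb, are described below. The claudin gene cldnh, for a protein of tight junctions, was at 3794, 7804, 4809 and 3969 CPM in MLCs and the E-cadherin gene cdh1 at 749, 1539, 1250.3 and 807 CPM, and both had 0 counts in neutrophils. Neither gene was low in any MLC library, and the means were at least 107733-fold and at least 22976-fold higher (edgeR adjusted p = 0.0166 and 0.00121). Another claudin gene, cldn7b, reached 778, 847, 1038 and 908 CPM, the serine protease inhibitor gene spint2 937, 1650.1, 810.3 and 832 CPM, and nipal4, the relative of a human ichthyosis gene, 1003, 714, 663 and 763 CPM. The 3 genes had 0 counts in neutrophils and were at least 18881-fold, 22365-fold and 16619-fold higher (edgeR adjusted p = 0.0159, 0.00842 and 0.0299). The actin-severing gelsolin gene gsnb was at 529, 1775, 1309 and 1269 CPM against 0, at least 25812-fold higher (edgeR adjusted p = 0.0143). The gene tmem176l.4 varied more, with 133, 2341, 1091 and 734 CPM in MLCs replicates 1 to 4 and 0 in neutrophils (edgeR adjusted p = 0.00121). For cdh1, spint2 and tmem176l.4 the call held with any 1 of the 7 libraries left out (edgeR adjusted p up to 0.0346). For gsnb it was lost without neutrophils replicate 2 (edgeR adjusted p 0.0577). For cldnh and cldn7b it was lost without neutrophils replicate 2 or 3 (edgeR adjusted p 0.0568 to 0.0626). For nipal4 it was lost without any 1 of the 7 libraries (edgeR adjusted p 0.051 to 0.106).

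**Figure D3:**
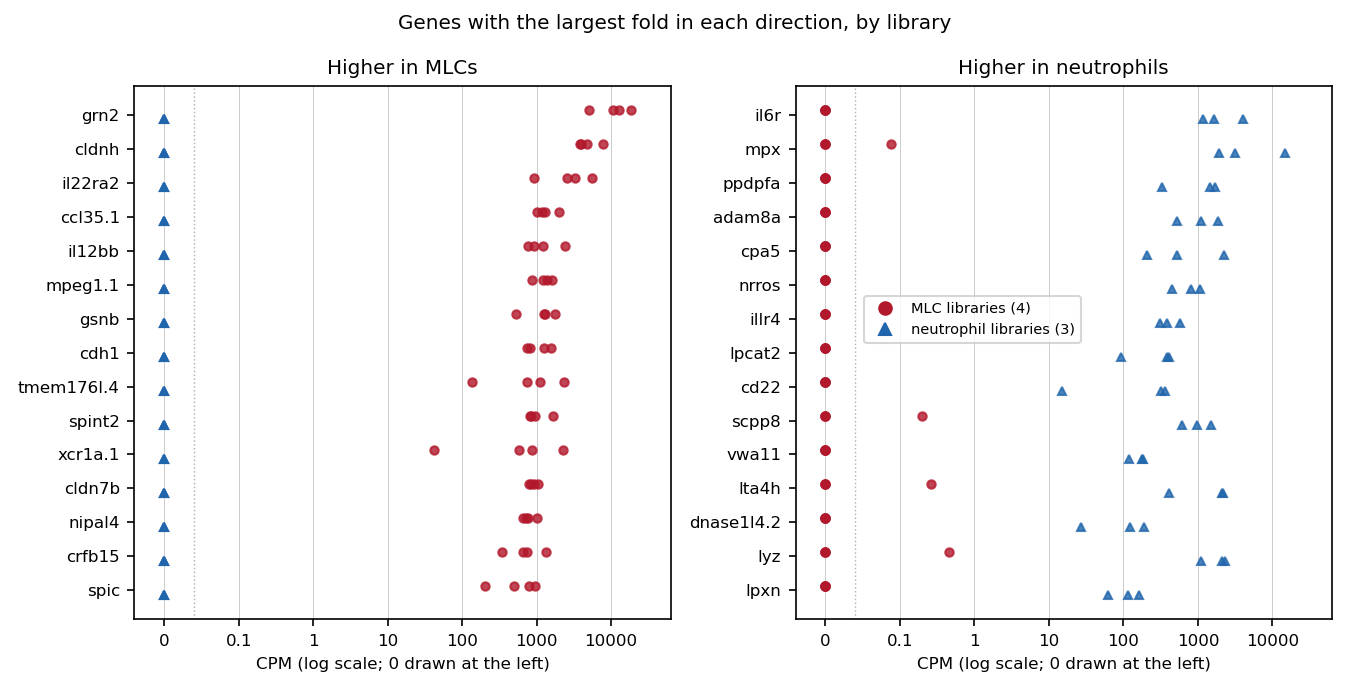
CPM (x axis, log scale, with 0 drawn at the left) of the 15 genes per direction with the largest fold, in each of 4 MLC libraries (red circles) and 3 neutrophil libraries (blue triangles). The 15 genes on the left have 0 counts in every neutrophil library, and those on the right are at 0 or under 0.5 CPM in every MLC library.

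Antigen presentation genes were a main immune group on the MLC side. Of 18 tested genes of the MHC class II list, 5 rose and 0 fell, and 13 did not pass. The median log2 fold change was 6.81 (6.78 with genes at 0 counts set to their bound) against 1.08 (0.95) over all tested genes. In 11 of the 18, every MLC library was above every neutrophil library, which was so for 13.4% of tested genes. Over all tested genes, to be set beside each list here and below, edgeR called 1.53% higher and 0.367% lower. DESeq2 called 15.4% and 2.62%, and limma on log2(TPM + 1) 6.53% and 2.37% of the genes it tested.

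The invariant chain, which escorts class II molecules to the lysosome, is encoded by cd74a and cd74b. Levels of cd74a were 15110.0, 30889.6, 14672 and 12528 CPM in MLCs replicates 1 to 4, and 29.5, 0 and 0 CPM in neutrophils replicates 1 to 3. Levels of cd74b were 2771, 16359.8, 7406 and 6891 CPM against 54.4, 0 and 23.6 CPM. Every MLC library exceeded the highest neutrophil library for both, and the log2 fold changes were 10.86 ± 2.01 and 8.33 ± 1.61 (± SE, edgeR adjusted p = 0.00842 and 0.0106). Per length, cd74a was at 19401 ± 6353 TPM in MLCs and 13.9 ± 24.1 TPM in neutrophils (n = 4 and 3).

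The lysosomal thiol reductase gene ifi30, which unfolds antigens before loading, was one of 3 genes called higher that every neutrophil library held, with 1780.4, 4412, 3315 and 2272 CPM against 37.7, 48.3 and 22 CPM. Its log2 fold change was 6.35 ± 1.03 (edgeR adjusted p = 0.00349). The class II transactivator gene ciita, which switches the pathway on in mammals, was at 77.7, 95.3, 178 and 51.3 CPM against 0 in neutrophils, at least 2128-fold higher (edgeR adjusted p = 0.0268). Of the class II beta chain genes on the list, mhc2b (ENSDARG00000104730) passed with 81.1, 9.67, 170.1 and 105 CPM against 0 (edgeR adjusted p = 0.0287). Its namesake mhc2b (ENSDARG00000104635) was more abundant, with 1314, 17063, 3699.6 and 2629 CPM against 9.26, 0 and 0 CPM, but did not pass (edgeR adjusted p = 0.113). Class II genes have near-identical copies, so the split of counts among them is uncertain. The gene mhc2dab differed widely between MLC libraries, with 0.399, 0.457, 4327 and 3928 CPM in replicates 1 to 4 (edgeR adjusted p = 0.18). The cause of this difference was not tested. Further class II genes that are not on the list were also called by edgeR, and their levels are not given here. For cd74a, cd74b and ifi30 the call held with any 1 of the 7 libraries left out (edgeR adjusted p up to 0.0461). For ciita it was lost without MLCs replicate 2 or 3 or any 1 neutrophil library (edgeR adjusted p 0.0541 to 0.106). For mhc2b (ENSDARG00000104730) it was lost without MLCs replicate 1 or 3 or any 1 neutrophil library (edgeR adjusted p 0.0516 to 0.109).

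No call was made among 25 genes of class I presentation and peptide processing by edgeR, where 3 had an unadjusted p under 0.05, DESeq2 called 3 higher and limma on TPM 2. DESeq2 and limma called 15.4% and 6.53% of all the genes they tested higher. The class I light chain gene b2m was at 3028, 7652, 7187 and 6869.7 CPM in MLCs and 2131, 428 and 1878 CPM in neutrophils, with a log2 fold change of 2.06 ± 0.77 (edgeR adjusted p = 0.155). The costimulatory gene cd83, a marker of mature dendritic cells, was at 1207, 2601, 1246 and 1046 CPM against 47.3, 0 and 0 CPM and did not pass either (edgeR adjusted p = 0.102), although the libraries did not overlap.

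Cytokine genes differed in a few members of each family. The gene il12bb, for the p40 subunit shared by interleukins 12 and 23, was at 772, 2423, 1223 and 933 CPM in MLCs and 0 in neutrophils, at least 28288-fold higher (edgeR adjusted p = 0.00988). The receptor subunit gene il6r showed the opposite pattern, with 3997, 1170.2 and 1647 CPM in neutrophils replicates 1 to 3 and 0 counts in MLCs, at least 38279.6-fold lower in MLCs (edgeR adjusted p = 0.0159). No other gene of the 15 tested in the interleukin 12 and 6 families and their receptors passed. Per length, il12bb reached 617 ± 269.9 TPM in MLCs and il6r 1191 ± 605 TPM in neutrophils. For il12bb and il6r the call held with any 1 of the 7 libraries left out (edgeR adjusted p up to 0.047).

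Among 13 tested genes of class II cytokine receptors, the family that binds interferons and the interleukins 10, 20 and 22, 3 rose and 0 fell. In mammals il22ra2 encodes a soluble receptor that binds interleukin 22 and blocks it. Its levels were 906, 5489, 2569 and 3244 CPM in MLCs replicates 1 to 4 against 0 in neutrophils, at least 64547-fold higher (edgeR adjusted p = 0.0144). The family member crfb15 was at 340.3, 1339.7, 751 and 653 CPM against 0, at least 16308-fold higher (edgeR adjusted p = 0.0106). The receptor subunit gene il20ra was at 15.2, 15.2, 142 and 135 CPM against 0, split between replicates 1 and 2 and the higher replicates 3 and 4 (edgeR adjusted p = 0.0266). The interferon gamma receptor gene ifngr2 was detected in all 7 libraries, with 79.3, 266, 252 and 205 CPM against 154, 95.5 and 195 CPM, and the groups overlapped (edgeR adjusted p = 0.952). For crfb15 the call held with any 1 of the 7 libraries left out (edgeR adjusted p up to 0.0474). For il22ra2 it was lost without neutrophils replicate 2 (edgeR adjusted p 0.0573). For il20ra it was lost without MLCs replicate 3 or any 1 neutrophil library (edgeR adjusted p 0.0511 to 0.106).

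Chemokine ligands, which draw in other leukocytes, were led by ccl35.1, with 1018, 1302, 1189 and 1965 CPM in MLCs and 0 in neutrophils, at least 28946-fold higher (edgeR adjusted p = 0.00988). The gene ccl20a.3 was at 273, 97.5, 142 and 107 CPM against 0, at least 3277-fold higher (edgeR adjusted p = 0.0221). Of 17 tested ligand genes these 2 rose and 0 fell. The gene ccl19a.1 was carried by 1 library, with 7.59, 1637, 13.2 and 8.26 CPM in MLCs replicates 1 to 4 and 0 in neutrophils (edgeR adjusted p = 0.0594). Members of these tandem families resemble each other, so reads can be shared between them. For ccl35.1 the call held with any 1 of the 7 libraries left out (edgeR adjusted p up to 0.0452), but not without the 4 libraries of few detected genes (edgeR adjusted p = 0.147). For ccl20a.3 it was lost without any 1 neutrophil library (edgeR adjusted p 0.0593 to 0.0948).

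Of 17 tested chemokine receptor genes, 1 rose, xcr1a.1, whose mammalian relative marks dendritic cells that cross-present antigen. It was at 42.3, 2234, 872 and 587 CPM in MLCs replicates 1 to 4 and 0 in neutrophils, at least 19749-fold higher (edgeR adjusted p = 0.00988). Replicate 1 was far below the other MLC libraries and still above all neutrophil libraries. Both ccr9a and cxcr4b were abundant in both groups and did not pass, with ccr9a at 2786, 3813, 2276 and 3573 CPM against 2347, 36.3 and 136 CPM (edgeR adjusted p = 0.286), and cxcr4b at 2238, 1335, 1641 and 2882 CPM against 1768, 291 and 853 CPM (edgeR adjusted p = 0.641). In both, neutrophils replicate 1 lay within the MLC range and replicates 2 and 3 below it. For xcr1a.1 the call held with any 1 of the 7 libraries left out (edgeR adjusted p up to 0.0452).

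Of 25 tested innate sensing genes, 2 rose and 0 fell. The endosomal receptor gene tlr8b was at 682, 317, 95 and 64.6 CPM against 0, at least 6124-fold higher (edgeR adjusted p = 0.00507), and tlr21 at 57.3, 42.3, 45.9 and 71.5 CPM against 0, at least 1147-fold higher (edgeR adjusted p = 0.0252). The Toll-like receptor genes tlr4al and tlr4bb and the related gene cd180, none of them on the list and all chosen after their values were seen, were also called higher and had 0 counts in neutrophils. In MLCs replicates 1 to 4, tlr4al was at 214, 279.8, 136 and 360.2 CPM (edgeR adjusted p = 0.0294), tlr4bb at 86.1, 30.1, 115 and 117 CPM (edgeR adjusted p = 0.0211) and cd180 at 321, 239, 189 and 166 CPM (edgeR adjusted p = 0.00517). The flagellin receptor gene tlr5b was at 151, 445 and 0 CPM in neutrophils and 0 in MLCs, and did not pass (edgeR adjusted p = 0.0591). For tlr8b and cd180 the call held with any 1 of the 7 libraries left out (edgeR adjusted p up to 0.0303). For tlr21 and tlr4bb it was lost without any 1 neutrophil library (edgeR adjusted p 0.0571 to 0.101), and for tlr4al without any 1 of the 7 libraries (edgeR adjusted p 0.0529 to 0.106).

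Transcription factor genes of the myeloid lineage split by member. Of 43 tested, 2 rose and 3 fell. The C/EBP factors drive granulocyte genes in mammals. Levels of cebpb were 16431, 10554 and 2152 CPM in neutrophils and 220.5, 16.5, 0 and 8.42 CPM in MLCs, a log2 fold change of -7.31 ± 1.59 (edgeR adjusted p = 0.0194). Levels of cebpa were 925, 787 and 1254 CPM in neutrophils and 0.799, 0.0653, 0 and 0 CPM in MLCs, a log2 fold change of -12.40 ± 2.28 (edgeR adjusted p = 0.00791). The third that fell was ets1, at 15.4, 67.2 and 61.9 CPM in neutrophils and 0 in MLCs, at least 812-fold lower (edgeR adjusted p = 0.0179). For cebpa the call held with any 1 of the 7 libraries left out (edgeR adjusted p up to 0.0311). For cebpb it was lost without MLCs replicate 2 or 4 (edgeR adjusted p 0.0617 to 0.0628). For ets1 it was lost without MLCs replicate 2 (edgeR adjusted p 0.0523).

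PU.1, the ETS factor that both macrophages and neutrophils need in mammals, is encoded by spi1b in zebrafish and has a close relative, spi1a. The relative was detected in every library, with 765, 1739, 1259 and 965 CPM in MLCs and 473, 688 and 261 CPM in neutrophils, and did not pass (edgeR adjusted p = 0.723). Levels of spi1b were 1555, 757 and 1239 CPM in neutrophils and 0.399, 0, 0 and 46.4 CPM in MLCs, and did not pass either (edgeR adjusted p = 0.139), with MLCs replicate 4 standing above the other MLC libraries. Another related factor, spic, which red pulp macrophages of the mouse spleen depend on, was at 201, 799, 936 and 492 CPM in MLCs and 0 in neutrophils, at least 12836-fold higher (edgeR adjusted p = 0.0194). The orphan nuclear receptor gene nr4a3 was the other factor that rose, at 662, 367, 324 and 343 CPM against 6.01, 0 and 0 CPM (edgeR adjusted p = 0.0464). For spic the call was lost without any 1 neutrophil library (edgeR adjusted p 0.0506 to 0.0754). For nr4a3 it was lost without any 1 MLC library or neutrophils replicate 2 or 3 (edgeR adjusted p 0.0656 to 0.13).

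**Figure D4:**
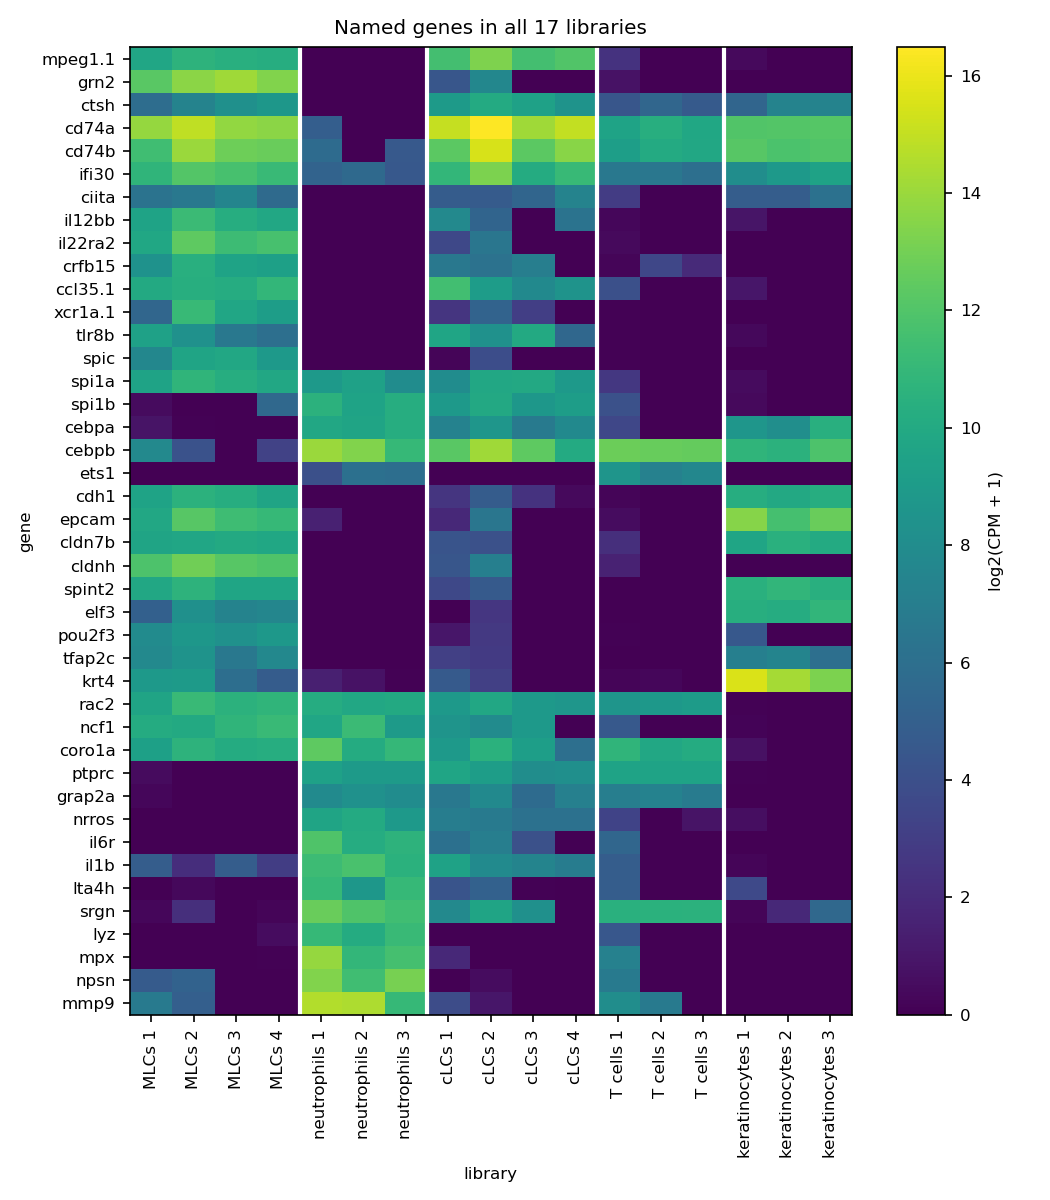
Level as log2(CPM + 1) (color) of 42 named genes (y axis) in all 17 libraries (x axis, grouped by cell type, white lines between groups). From mpeg1.1 to spic the MLC columns are brighter than the neutrophil columns, from ptprc to mmp9 darker, and rac2, ncf1, coro1a and spi1a are bright in all 7 libraries.

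Epithelial junction genes made up the largest group of calls among the lists. Of 46 tested genes for adherens junctions, desmosomes, tight junctions and their proteases, 15 rose in MLCs and 0 fell. The median log2 fold change was 10.22 (8.0 with genes at 0 set to their bound). In 29 of 46, every MLC library was above every neutrophil library, against 13.4% of tested genes. DESeq2 called 33 higher. Over all tested genes, edgeR called 1.53% and DESeq2 15.4% higher. Without neutrophils replicate 2, 3 of 15 calls remained (adjusted p 0.0107 to 0.171) by edgeR, and without replicate 3, 5 of 15 calls remained (adjusted p 0.00787 to 0.145).

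Beside cdh1, cldnh, cldn7b and spint2, the adhesion gene epcam stood at 936, 4648, 2598 and 2077 CPM in MLCs and 1.9, 0 and 0 CPM in neutrophils, a log2 fold change of 11.96 ± 3.07 (edgeR adjusted p = 0.044). The desmosome gene pkp3a was at 347, 131, 64.2 and 141 CPM against 0, at least 3614-fold higher (edgeR adjusted p = 0.00791), and the polarity gene llgl2 at 519, 182, 125 and 273 CPM against 0, at least 5809-fold higher (edgeR adjusted p = 0.0106). Occludin of tight junctions, encoded by oclnb, was at 162, 103, 139 and 181 CPM against 0.0423, 0 and 0 CPM (edgeR adjusted p = 0.0135). For pkp3a the call held with any 1 of the 7 libraries left out (edgeR adjusted p up to 0.0379). For epcam it was lost without any 1 MLC library or neutrophils replicate 2 or 3 (edgeR adjusted p 0.0627 to 0.135). For llgl2 it was lost without neutrophils replicate 2 (edgeR adjusted p 0.0525). For oclnb it was lost without neutrophils replicate 2 or 3 (edgeR adjusted p 0.0517 to 0.0641).

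These genes can be set beside the keratinocyte libraries. The mean of cdh1 was 1159 ± 137 CPM in keratinocytes (n = 3) and 1086 ± 376 CPM in MLCs (n = 4), and that of spint2 1558 ± 278 and 1058 ± 399 CPM. The mean of epcam was 7160.0 ± 4270.2 CPM in keratinocytes and 2565 ± 1552 CPM in MLCs. For cldnh the order was different, with 0 counts in keratinocytes and 5094 ± 1860.1 CPM in MLCs, and nipal4 was at 6.89 ± 11.9 CPM in keratinocytes and 786 ± 150.5 CPM in MLCs. Summed over all 53 listed junction genes, MLC libraries held 14765 to 25638 CPM, neutrophil libraries 83.9 to 456 CPM and keratinocyte libraries 37538 to 66404 CPM. The junction sum was 130 to 1849 CPM in cLC libraries and 621 to 668 CPM in T cell libraries.

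Keratin genes, the classic markers of keratinocytes, gave no call by edgeR among 16 tested, where 6 had an unadjusted p under 0.05, DESeq2 called 6 higher and limma on TPM 5. Among all the genes they tested, DESeq2 and limma called 15.4% and 6.53% higher. Summed over 24 listed keratin genes, MLC libraries held 6558 to 15195 CPM, neutrophil libraries 627 to 1643 CPM and keratinocyte libraries 24253 to 110569 CPM. The keratin sum was 11501 to 49633 CPM in cLC libraries and 224 to 372 CPM in T cell libraries. The keratinocyte reporter gene krt4 was at 465, 506, 60 and 27.16 CPM in MLCs and 1.78, 0.782 and 0.0485 CPM in neutrophils (edgeR adjusted p = 0.0527), against 26069 ± 20282 CPM in keratinocytes. Krt4 was higher in MLCs replicates 1 and 2 than in replicates 3 and 4. In MLCs 9 of the 24 keratin genes had 0 counts. The part of RNA from keratinocytes in the junction gene calls was not tested.

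Epidermal transcription factors also lay on the MLC side. Of 27 tested, 5 rose and 0 fell, with a median log2 fold change of 9.29 (6.94 with genes at 0 set to their bound). The factor gene elf3, which acts in epithelial differentiation, was at 32, 305, 163 and 188 CPM against 0, and tfap2c, an AP-2 factor of surface ectoderm, at 215, 348, 97.4 and 209.6 CPM against 0. They were at least 3637-fold and at least 4603-fold higher (edgeR adjusted p = 0.0167 and 0.0212). The POU factor gene pou2f3, which tuft cells of mammals require, was at 248, 416, 329 and 435 CPM against 0, at least 7548-fold higher (edgeR adjusted p = 0.0316). Its mean in keratinocytes was 7.35 ± 12.7 CPM and in cLCs 1.65 ± 2.69 CPM. The epithelial splicing gene esrp1 was at 23.2, 26.8, 31 and 57.6 CPM against 0 (edgeR adjusted p = 0.0288). For elf3 the call was lost without neutrophils replicate 2 or 3 (edgeR adjusted p 0.0573 to 0.0646). For tfap2c it was lost without MLCs replicate 2 or any 1 neutrophil library (edgeR adjusted p 0.0517 to 0.0904). For pou2f3 and esrp1 it was lost without any 1 of the 7 libraries (edgeR adjusted p 0.0505 to 0.118). Without neutrophils replicate 2 or 3, 0 of the 5 calls remained.

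Of 31 tested genes on the macrophage list, 4 rose and 0 fell, namely grn2, mpeg1.1, slc7a7 and slc37a2. The amino acid transporter gene slc7a7, needed by microglia in zebrafish, was at 163, 61.9, 63.4 and 86.8 CPM against 0, at least 1986-fold higher (edgeR adjusted p = 0.00212). The sugar phosphate transporter gene slc37a2 was at 117, 106, 106 and 196 CPM against 0.0846, 0 and 0 CPM (edgeR adjusted p = 0.00324). Several defining macrophage genes were at 0 counts in all 4 MLC libraries, among them csf1ra and csf1rb, for the receptors of the macrophage growth factor, and the mannose receptor gene mrc1a. The library sums of the macrophage list were 7238 to 20905 CPM in MLCs, most of it grn2, and 189 to 1316 CPM in neutrophils. In cLCs, keratinocytes and T cells they were 8913 to 95694, 523 to 1090 and 167 to 395 CPM. Of the Langerhans and dendritic cell list, 4 of 22 tested genes rose, cdh1, epcam, spic and xcr1a.1, all described above, and 0 fell. For mpeg1.1, slc7a7 and slc37a2 the call held with any 1 of the 7 libraries left out (edgeR adjusted p up to 0.023). The call of mpeg1.1 was lost without the 4 libraries of few detected genes (edgeR adjusted p = 0.0764), where those of slc7a7 and slc37a2 remained (edgeR adjusted p = 0.0122 and 0.0295). Of the markers that could define MLCs, cd74a, grn2 and the reporter gene mpeg1.1 were high in all 4 libraries, while the macrophage growth factor receptors were not detected.

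The list of cathepsins and lysosomal genes added a few calls, 4 of 39 tested genes, with 0 lower. Cathepsin H, encoded by ctsh, was at 58.3, 166, 309 and 423 CPM against 0, at least 5059-fold higher (edgeR adjusted p = 0.000975), and cathepsin K, encoded by ctsk, at 45.3, 123, 103 and 146 CPM against 0.0423, 0 and 0.0485 CPM (edgeR adjusted p = 0.00922). Progranulin, encoded by grna, was at 467, 974, 652 and 714 CPM against 6.73, 0 and 0 CPM, a log2 fold change of 8.28 ± 1.83 (edgeR adjusted p = 0.0207). The general lysosomal gene cd63 was present in both groups. It was at 1171, 6813, 3611 and 2773 CPM in MLCs and 3040.3, 2017 and 1396 CPM in neutrophils, and the groups overlapped (edgeR adjusted p = 0.693). For ctsh the call held with any 1 of the 7 libraries left out (edgeR adjusted p up to 0.00856). For ctsk and grna it was lost without neutrophils replicate 2 (edgeR adjusted p 0.0548 to 0.0577).

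Genes for calcium-binding proteins of the annexin and S100 families were a smaller group of the same direction. Of 21 tested annexin and S100 genes, 3 rose and 0 fell. The annexin gene anxa5b was at 459.7, 764, 535 and 485 CPM, the S100 gene s100u at 547, 419, 381 and 276 CPM and s100v1 at 278, 381, 494 and 282 CPM in MLCs, and the 3 genes had 0 counts in neutrophils. They were at least 11861-fold, 8580.2-fold and 7586-fold higher (edgeR adjusted p = 0.00791, 0.0148 and 0.0143). For anxa5b the call held with any 1 of the 7 libraries left out (edgeR adjusted p up to 0.0346), but not without the 4 libraries of few detected genes (edgeR adjusted p = 0.067). For s100u it was lost without neutrophils replicate 2 or 3 (edgeR adjusted p 0.0501 to 0.0609). For s100v1 it was lost without neutrophils replicate 2 (edgeR adjusted p 0.0577).

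On the neutrophil side, the granule and protease list held the main group. Of its 16 tested genes, which include the lectin-like receptor gene illr4, 7 were lower in MLCs and 0 higher. The median log2 fold change was -11.88 (-11.10 with genes at 0 set to their bound), and 14 of 16 had every neutrophil library above every MLC library, which was so for 3.0% of tested genes. DESeq2 called 11 lower, against 2.62% of all tested genes. Summed over the list, neutrophil libraries held 24771 to 71569 CPM and MLC libraries 320 to 577 CPM. Without neutrophils replicate 2, 5 of 7 calls remained (adjusted p 0.0167 to 0.0609) by edgeR, and without MLCs replicate 2, 2 of 7 calls remained (adjusted p 0.0169 to 0.0797).

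Myeloperoxidase, the enzyme that makes hypochlorous acid in granules, is encoded by mpx. It was at 14875, 1907 and 3159 CPM in neutrophils replicates 1 to 3, and 1 read of it was counted in MLCs, in replicate 4. Replicate 1 was the highest and no neutrophil library was near the MLC level (edgeR log2 fold change -17.84 ± 3.46, adjusted p = 0.0123). Per length, mpx was at 3353 ± 3184 TPM and lyz at 6344 ± 1945 TPM in neutrophils (n = 3). The lyz gene fell with a log2 fold change of -13.79 ± 2.80 (edgeR adjusted p = 0.0179). Serglycin, the proteoglycan that packs granule enzymes, is encoded by srgn and was at 6758, 3895 and 2823 CPM in neutrophils and 0.2, 3.66, 0 and 0.153 CPM in MLCs (edgeR adjusted p = 0.0143). For mpx and srgn the call held with any 1 of the 7 libraries left out (edgeR adjusted p up to 0.047). For lyz it was lost without MLCs replicate 1 or 2 (edgeR adjusted p 0.056).

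The other called genes of the granule and protease list were absent from all or all but 1 MLC library. The leukocyte metalloprotease gene adam8a was at 1834, 1096 and 518 CPM, the carboxypeptidase gene cpa5 at 2228, 519.8 and 207 CPM and the lectin-like receptor gene illr4 at 388, 567 and 306 CPM in neutrophils, and all had 0 counts in MLCs. They were at least 19366-fold, 16594-fold and 7085-fold lower in MLCs (edgeR adjusted p = 0.0252, 0.0202 and 0.0211). In zebrafish cpa5 is also a mast cell gene, and of the defining mast cell genes kita and hdc had 0 counts in neutrophils. The gene scpp8, for a secretory calcium-binding phosphoprotein, was at 1518, 609 and 986 CPM in neutrophils and had 1 read in MLCs (edgeR adjusted p = 0.0256). For adam8a and illr4 the call was lost without any 1 MLC library or neutrophils replicate 2 (edgeR adjusted p 0.0501 to 0.0645). For cpa5 it was lost without MLCs replicate 1 or 2 or neutrophils replicate 1 (edgeR adjusted p 0.0511 to 0.056). For scpp8 it was lost without any 1 MLC library (edgeR adjusted p 0.0627 to 0.0797).

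The abundant protease genes mmp9, npsn and mmp13a did not pass although no library overlapped. Gelatinase B, encoded by mmp9, was at 24866, 22203 and 2093 CPM in neutrophils and 108, 30.8, 0 and 0 CPM in MLCs (edgeR adjusted p = 0.101). The astacin-like protease gene npsn, specific to neutrophils in zebrafish, was at 10425, 2818 and 8839.9 CPM and 26.2, 35.4, 0 and 0 CPM (edgeR adjusted p = 0.0929), and the collagenase gene mmp13a at 1850.4, 14669 and 419 CPM and 0, 0, 0 and 9.95 CPM (edgeR adjusted p = 0.0619). In each the MLC reads came from 1 or 2 of the 4 libraries.

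Receptors and lipid mediators of neutrophils were next. Of 30 tested receptor and recruitment genes, 4 were lower in MLCs and 0 higher, with a median log2 fold change of -2.0. Beside il6r, they were lta4h, c5ar1 and il1b. Leukotriene A4 hydrolase, encoded by lta4h, makes the neutrophil attractant leukotriene B4, and was at 2076, 414 and 2158 CPM in neutrophils and 0, 0.261, 0 and 0 CPM in MLCs (edgeR adjusted p = 0.0316). The complement receptor gene c5ar1 was at 73.2, 0 and 258 CPM in neutrophils and 0 in MLCs (edgeR adjusted p = 0.0414), and neutrophils replicate 2, with 0 counts, tied with the MLC libraries. Interleukin 1 beta, encoded by il1b, was at 2524, 3507 and 1451 CPM in neutrophils and 28.6, 3.4, 28.1 and 6.96 CPM in MLCs, a log2 fold change of -7.22 ± 1.89 (edgeR adjusted p = 0.0481). The gene alox5ap, whose product hands arachidonic acid to the 5-lipoxygenase, was at 576, 1113 and 721 CPM and 1.6, 0, 0 and 0 CPM and did not pass (edgeR adjusted p = 0.0609). The cyclooxygenase gene ptgs2b was at 360.3, 3891, 663 and 421 CPM in MLCs and 56.4, 0 and 266 CPM in neutrophils and did not pass (edgeR adjusted p = 0.402). For lta4h the call was lost without any 1 MLC library or neutrophils replicate 2 or 3 (edgeR adjusted p 0.0577 to 0.0999). For c5ar1 it was lost without any 1 MLC library or neutrophils replicate 1 or 3 (edgeR adjusted p 0.0513 to 0.105). For il1b it was lost without any 1 of the 7 libraries (edgeR adjusted p 0.0655 to 0.131).

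Further genes with a large fold on the neutrophil side were ppdpfa, at 1449, 328 and 1704 CPM in neutrophils and 0 in MLCs, and nrros, at 800.2, 1061 and 456 CPM and 0. They were at least 19553-fold and at least 13015-fold lower in MLCs (edgeR adjusted p = 0.0222 and 0.00415). In mice NRROS is a leucine-rich membrane protein of myeloid cells that limits their oxidants. The gene lpcat2, for an enzyme that makes platelet-activating factor in mammals, was at 411, 382 and 91.6 CPM against 0 (edgeR adjusted p = 0.0375). The inhibitory receptor gene cd22, known from mammalian B cells, was at 15.1, 361 and 321 CPM against 0 (edgeR adjusted p = 0.0414). Of the defining B cell genes, cd79b had 0 counts in neutrophils and cd79a was at 3.21, 9.69 and 0 CPM. Summed over the 19 genes of the B and NK cell list, neutrophil libraries held 228 to 632 CPM and MLC libraries 123 to 332 CPM. In each group 11 of these genes had 0 counts. The part of RNA from B or NK cells was not tested. The remaining 3 were vwa11, dnase1l4.2 and lpxn, each at 0 in MLCs and, in this order, at 177, 117 and 184, 192, 27.21 and 122 and 62.7, 159.7 and 114 CPM in neutrophils replicates 1 to 3 (edgeR adjusted p = 0.0484, 0.00988 and 0.0158). Of the 15 genes per direction named for their fold, 9 higher and 9 lower were called without neutrophils replicate 2, and 14 higher and 5 lower without MLCs replicate 1 or 2. For nrros, dnase1l4.2 and lpxn the call held with any 1 of the 7 libraries left out (edgeR adjusted p up to 0.0476). For ppdpfa it was lost without any 1 MLC library (edgeR adjusted p 0.0538 to 0.0627). For lpcat2 and vwa11 it was lost without any 1 of the 7 libraries (edgeR adjusted p 0.0573 to 0.119). For cd22 it was lost without any 1 MLC library or neutrophils replicate 2 or 3 (edgeR adjusted p 0.088 to 0.106).

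General leukocyte genes separated in a few members. The phosphatase CD45, encoded by ptprc and carried by nearly all leukocytes, was at 677, 516 and 516 CPM in neutrophils replicates 1 to 3. In MLCs replicates 1 to 4 it was at 0.399, 0, 0 and 0 CPM, 2 reads in all. Neutrophil libraries were close to each other, and ptprc had the smallest adjusted p of all lower genes (edgeR log2 fold change -12.93 ± 1.76, adjusted p = 0.000975). It was also detected in the other leukocyte groups, at 490.0 ± 262 CPM in cLCs and 760.3 ± 16.1 CPM in T cells. The adaptor gene grap2a was at 239, 326 and 259.5 CPM in neutrophils and had 1 read in MLCs (edgeR adjusted p = 0.00324). With mpeg1.1 higher, these were the 3 calls among 24 tested pan-leukocyte genes. For ptprc and grap2a the call held with any 1 of the 7 libraries left out (edgeR adjusted p up to 0.0169).

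Other leukocyte genes were abundant in MLCs as well. The small GTPase gene rac2, specific to blood cells, was at 781, 2305, 1575 and 1749.7 CPM in MLCs and 1188, 936 and 1025 CPM in neutrophils (edgeR adjusted p = 0.802). The actin regulators of leukocytes coro1a and lcp1 were at 652, 1620.0, 1139 and 1220.0 CPM and 920.0, 4093, 2436 and 2185 CPM in MLCs, and at 5364, 1152 and 2019 CPM and 7822, 3355 and 2769.8 CPM in neutrophils (edgeR adjusted p = 0.537 and 0.699). All libraries held these genes and the groups overlapped. In keratinocytes rac2 was at 0.0171 ± 0.0296 CPM, coro1a at 0.222 ± 0.385 CPM and lcp1 at 0.325 ± 0.563 CPM.

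The NADPH oxidase, which makes superoxide in phagocytes, was present in both groups. By edgeR 0 of 8 tested genes passed, with 1 at an unadjusted p under 0.05 and 0 calls by DESeq2 or limma on TPM. The cytosolic subunit gene ncf1 was at 1118, 1034, 1794 and 2337 CPM in MLCs and 883, 2366 and 510.0 CPM in neutrophils, a log2 fold change of 0.33 ± 1.75 (edgeR adjusted p = 0.999). The membrane subunit gene cyba was at 381, 502, 545 and 671 CPM and 429.8, 1499 and 269 CPM, with overlapping groups (edgeR adjusted p = 0.893). The SEs allow for changes of several log2 units, so these values do not show that levels were equal.

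**Figure D5:**
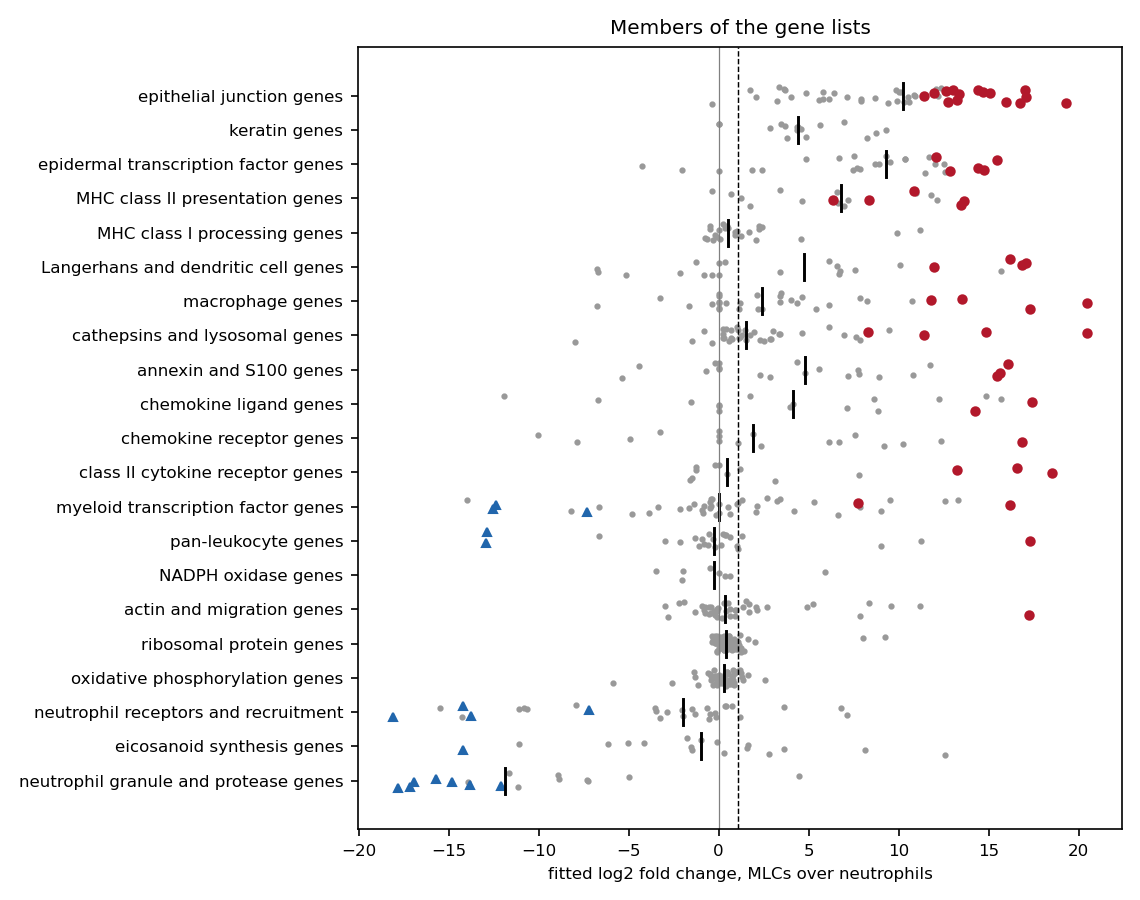
Fitted log2 fold change, MLCs over neutrophils (x axis), of the tested members of 21 gene lists (y axis), with members called higher (red circles), called lower (blue triangles) or not called (grey). Black bars are list medians, the dashed line is the median of all tested genes at 1.08, and values beyond about 10 come mostly from genes with no count in 1 group. The median is 10.22 for junction genes and -11.88 for neutrophil granule and protease genes.

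Housekeeping groups held few or no calls. By edgeR 0 of 80 ribosomal protein genes passed, with 2 at an unadjusted p under 0.05, 0 calls by DESeq2 or limma on TPM, and a median log2 fold change of 0.38. By edgeR 0 of 53 oxidative phosphorylation genes passed, with 0 at an unadjusted p under 0.05, 0 calls by the other tools, and a median of 0.28. Both medians were below that of all tested genes. Of 44 tested actin and migration genes, 1 rose, gsnb, and none fell by edgeR, while DESeq2 called 5 higher and 1 lower. DESeq2 called 15.4% of all tested genes higher and 2.62% lower.

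Markers of other cell types were checked in both groups. Of 30 tested T cell genes edgeR called 0, with 9 at an unadjusted p under 0.05, while DESeq2 called 3 higher and 1 lower and limma on TPM 3 higher and 1 lower. The T cell list summed to 2406 to 3887 CPM in MLCs and 94.7 to 3036 CPM in neutrophils. In cLCs, keratinocytes and T cells it summed to 2290 to 5218, 165 to 338 and 6588 to 13998 CPM. Of its 34 genes, 16 had 0 counts in MLCs and 16 in neutrophils, and the defining genes cd247 and lat had 0 in both. Counts in MLCs but none in neutrophils fell on cd4-1, cd4-2.2, cd8a, gata3, prf1.1, prf1.9, gzma and gzmk. The reverse held for zap70, il2rb, il7r, tcf7, bcl11ba, foxp3b, sh2d1ab and il4. The T cell reporter gene lck reached 25.7 CPM in neutrophils replicate 2 and 12.4 CPM in MLCs replicate 3. Summed levels of the fibroblast, pigment cell, endothelial, and erythrocyte and thrombocyte lists reached at most 29.4, 28, 3.59 and 16 CPM in an MLC library. In neutrophil libraries they reached 3.83, 0.465, 228 and 99.1 CPM. The mast cell and eosinophil list, which holds the neutrophil-side calls srgn and cpa5, summed to 119 to 320.5 CPM in MLCs and 4829 to 10281 CPM in neutrophils, where 9 of its 13 genes had 0 counts. The globin genes hbaa2 and hbba2 had 0 counts in both groups. The mucous and club cell list, with cldnh as its 1 called member, summed to 7005 to 14203 CPM in MLCs and 51.5 to 1708 CPM in neutrophils. In cLCs and keratinocytes it summed to 3539 to 23191 and 22.6 to 430 CPM. Of its 20 genes, 12 had 0 counts in MLCs and 16 in neutrophils, with the mucin genes muc5.1 and muc5.3 at 0 in both. The genes agr2, muc5.2, cldnh, foxa3 and ITLN1 had counts in MLCs and 0 in neutrophils, and xdh the reverse. Sums of these lists can be carried by few genes. In MLCs cldnh, at the levels given above, was a large part of the mucous and club cell sum.

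The called genes can be placed by their level in the other groups. Of the 234 genes higher in MLCs, 160 (68.4%) had a mean of at least 10 CPM in keratinocytes, 118 (50.4%) in cLCs and 59 (25.2%) in T cells, against 43.2%, 43.2% and 44.9% of all tested genes. Of the 56 genes lower in MLCs, 7 (12.5%) reached that mean in keratinocytes, 35 (62.5%) in cLCs and 30 (53.6%) in T cells. These are descriptions without a test. For 22 of the 234 and 13 of the 56, the mean was below 10 CPM in all 3 of these groups. Among the named genes these were nipal4, pou2f3, spic and tlr4al on the MLC side, and ppdpfa, cpa5, illr4, lpcat2, scpp8 and lyz on the neutrophil side.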

How the data were processed

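Cells were picked from adult zebrafish epidermis and amplified by SMART-seq2, per the labels' protocols. The submitters' processing notes name STAR, featureCounts and the build danRer10. Tool versions, the gene annotation and the strand setting were not given in the sources used here. The authors deposited raw read counts per gene in 1 table and TPM in another. After 455 repeated lines were dropped from the 35572 of each table, 35117 identifiers were left. Symbols, found for 27289 identifiers, came from the tables and a gene name table.

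Counts were tested with edgeR 4.0.16 (R 4.3.3): TMM factors, its low-count filter by group, and 1 quasi-likelihood model of the 17 libraries with a mean per group and no covariate. A gene was called at a Benjamini-Hochberg adjusted p under 0.05, adjusted over the 15247 genes tested. The spread was wide (common biological coefficient of variation 2.03, 12 residual degrees of freedom). CPM are relative to the TMM-scaled library total, given with SD, and TPM come from the deposited table. Where a group had 0 counts, a fold is a bound against 3 counts over the group, 0.0473 CPM in neutrophils and 0.0593 CPM in MLCs. Reads were amplified with no molecular identifiers and are not independent molecules, so bounds cover counting error only and not the spread between libraries. For nipal4, pou2f3 and spic the lower 95% limits of the edgeR fold, MLCs over neutrophils, were 402, 230 and 598, below their bounds. The script was tested on simulated data.

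The members, the 43 gene lists (1037 of 1117 symbols matched) and the tests were chosen with earlier results of these data known. Lists are described by counts and medians, without a set test, and genes can stand in several lists. The text names, in each direction, the 15 called genes of largest fold among those with a mean of at least 50 CPM, no overlap and no placeholder symbol, the reporter and marker genes, called list members with the smallest adjusted p, up to 5 a list, the most abundant uncalled members, up to 3 a list, and the 5 smallest adjusted p per direction. Not all genes that qualify are printed. Alternatives were RLE scaling, DESeq2 1.42.0, other filters, limma 3.58.1 with a trend on log2(TPM + 1) or log2(TPM + 0.1) where 3 libraries reached 1 TPM, a fit of the 7 compared libraries, a test against a 2-fold change, a replicate block, leaving out the libraries of fewer than 6000 detected genes, and leaving out each library.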

Additional observations from a re-analysis of the deposited data

Results flagged for a closer look

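For 24 of 101 genes named in the text, 1 MLC library lay far from the other 3, by Dixon's ratio of the gap to the range against its 95% critical value. In 9 of them, alox5ap, grap2a, il34, lta4h, lyz, mmp13a, mpx, ptprc and scpp8, the other 3 libraries had 0 counts, so any count at all gives a ratio of 1. The other 15 had counts in another library. The rate of about 1 in 20 groups that chance gives holds for normally distributed values, so these numbers cannot be set against it. Neutrophils, with 3 libraries, were not tested.

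In MLCs replicate 2 several immune genes were highest by far. The level of cd74a there was 30890 CPM, of mhc2b (ENSDARG00000104635) 17063 CPM, of cd83 2601 CPM, of ptgs2b 3891 CPM, of ccl19a.1 1637 CPM and of spint2 1650.1 CPM. The neutrophil genes srgn and lta4h also peaked there, at 3.66 CPM and 0.261 CPM.

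In MLCs replicate 1 cebpb was at 220.5 CPM, nr4a3 at 662 CPM and il34 at 14.6 CPM, the highest of the MLC libraries, and b2m was the lowest at 3028 CPM. Traces of neutrophil and leukocyte genes also fell in that library alone or nearly so, with alox5ap at 1.60 CPM, cebpa at 0.799 CPM, ptprc at 0.399 CPM, and grap2a and scpp8 at 0.200 CPM each.

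In MLCs replicate 4 the highest values were those of slc37a2 at 195.9 CPM, mki67 at 72.7 CPM, spi1b at 46.4 CPM, mmp13a at 9.95 CPM, lyz at 0.459 CPM and mpx at 0.0765 CPM, the last a single read. In MLCs replicate 3 the T cell gene lck was at 12.4 CPM.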

How the results depend on the processing

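The counts of called genes moved with the processing. The genes called higher and lower in MLCs, 234 and 56, became 2350 and 399 with DESeq2, 952 and 346 with limma on log2(TPM + 1), 1074 and 269 with limma on log2(TPM + 0.1), 478 and 196 with no filter on low counts, 503 and 106 with only the 7 libraries compared, and 96 and 92 without the libraries of fewer than 6000 detected genes, which drops 2 of the 3 neutrophil and 2 of the 4 cLC libraries. The 1 neutrophil library left is assumed to vary like the other groups. RLE scaling gave 263 and 91, a minimum of 10 CPM in 3 libraries 305 and 84, and a test for a fold above 2 gave 224 and 51. Leaving out each of the 17 libraries in turn gave 37 to 405 higher and 18 to 92 lower genes. The deviations of same-numbered libraries from their group means correlated at -0.03, -0.0089 and -0.0061 across genes for replicates 1, 2 and 3. With 3 or 4 libraries per group, these values cannot show whether same-numbered libraries share an experiment or batch. With the replicate number as a block, 440 genes were higher and 114 lower. The cause of these changes was not tested.

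Over the named genes, called ones kept their direction in all 27 alternatives, and lost the threshold in 214 of 1835 gene and setting pairs. The kept direction says little, because most called genes had no overlap between the groups and could hardly reverse. Among all 290 called genes, 1 lost its direction in 1 alternative: si:ch211-153b23.5, at 120.3 and 84.5 CPM in neutrophils replicates 2 and 3 and 0 in the other 5 compared libraries, had a log2 fold change of 0 (edgeR adjusted p = 1) without the libraries of fewer than 6000 genes. It was chosen after its values were seen. Among the named genes, the direction changed only in those that had not been called. Of the 33 named genes not called in the main fit, 12 passed with DESeq2 and 14 with no filter on low counts. With limma, 15 passed on log2(TPM + 1) and 14 on log2(TPM + 0.1), and with RLE scaling 3 did. Not passing in the main fit therefore depends on the tool for many of them. The log2 fold change of ncf1 became -0.0266 with RLE scaling, -0.0265 with DESeq2, -0.0761 with limma on log2(TPM + 1), -0.0760 with limma on log2(TPM + 0.1), and -0.0495 (without neutrophils replicate 3) to 1.17 with each library left out. With limma on log2(TPM + 1) and log2(TPM + 0.1), that of rac2 became -0.0997 and -0.0999, of cd63 -0.0674 and -0.0675, and of ifngr2 -0.257 and -0.261. For mki67 it became 1.56 with limma on log2(TPM + 0.1), 6.04 with the replicate block and -3.38 to 11.54 with each library left out. Leaving out each library gave -11.50 to 4.76 for cdk1 and -10.18 to 5.64 for top2a, and for these 3 genes the highest value is that without neutrophils replicate 1. It gave -0.88 to 0.58 for cyba and -4.90 to 5.52 for lck, where the highest is that without neutrophils replicate 2. Without the libraries of fewer than 6000 genes cyba moved to 0.28 and lck to 4.55.

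Neutrophils rest on 3 libraries, 2 of them with few detected genes. A count of 0 allows up to 0.0473 CPM in neutrophils and 0.0593 CPM in MLCs, for counting error only.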

Other observations

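Cell cycle genes stood apart within the neutrophils. The topoisomerase gene top2a, active in dividing cells, was at 558, 0 and 0 CPM in neutrophils replicates 1 to 3 and 1.2, 0.457, 0 and 0 CPM in MLCs replicates 1 to 4. The mitotic kinase gene cdk1 was at 488, 0 and 0 CPM and 0.2, 0.653, 0 and 0 CPM, and the proliferation marker gene mki67 at 282, 0 and 0 CPM and 8.19, 11.56, 5.65 and 72.7 CPM. For these 3 genes all neutrophil counts came from replicate 1, the neutrophil library with the most detected genes. Both cdk1 and mki67 were chosen after their values were seen. Without the 4 libraries of few detected genes, which left neutrophils replicate 1 alone in its group, the log2 fold change of cdk1 was -10.97. Summed over 33 listed cell cycle genes, levels were 745 to 9587 CPM in neutrophils and 769 to 1647 CPM in MLCs. By edgeR 0 of 31 tested genes passed, with 4 at an unadjusted p under 0.05, and DESeq2 called 1 lower.

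Signals between immune cells showed further values that did not pass. The gene il34, for a ligand of the macrophage growth factor receptor that keratinocytes secrete in mammals, was at 548, 224 and 354 CPM in neutrophils and 14.6, 0, 0 and 0 CPM in MLCs (edgeR adjusted p = 0.162). The product of the integrin gene itgam pairs with the beta 2 integrin on phagocytes. Levels of itgam were 65.9, 313, 509.9 and 361 CPM in MLCs and 0, 0 and 8.44 CPM in neutrophils (edgeR adjusted p = 0.179). Without the 4 libraries of few detected genes, which dropped the only neutrophil library with a count, its log2 fold change was 15.2. The interferon factor gene irf7 was at 776, 760.4, 666 and 572 CPM in MLCs and 94.7, 19.5 and 103 CPM in neutrophils (edgeR adjusted p = 0.0991), while stat1a, which carries interferon signals to the nucleus, was at 147, 189, 210.0 and 175.9 CPM and 523, 249.6 and 492 CPM (edgeR adjusted p = 0.479). The chitinase gene chia.6 was at 2203, 4042, 2551 and 1756 CPM in MLCs and 589, 1485 and 51.5 CPM in neutrophils (edgeR adjusted p = 0.699).

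The identifier with the most counts in 6 of the 7 libraries, ENSDARG00000080337, has no symbol in the tables used. It took 12.4% to 32.7% of the counts of MLC libraries and 7.52% to 16.6% of those of neutrophils replicates 2 and 3, and it was called higher in MLCs (edgeR adjusted p = 0.0473). For ENSDARG00000080337 the call was lost without any 1 MLC library or neutrophils replicate 1 or 2 (edgeR adjusted p 0.0541 to 0.171).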
